A study of Mus musculus with 18 samples.

Results

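Rab proteins are small GTPases of the Ras superfamily that act as address labels of the membrane traffic of a cell. The genes described here are all those whose gene symbol is Rab followed by a number, with or without a closing letter, and that were named by a probe set carrying a single symbol. There were 50 such genes among 12393 genes tested, and each was read from its probe set with the highest mean signal. Genes entered the list by name, though the list was chosen with earlier results of these data known.

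The arrays came from bone marrow macrophages of C57BL/6 mice aged 4 to 6 weeks, grown in medium conditioned by L929 fibroblasts, which supplies macrophage growth factor. There were 18 arrays in 6 groups of 3. SPIO-LPS cells were pretreated for 24 h with 33 nm superparamagnetic iron oxide particles (SPIO), washed and given lipopolysaccharide (LPS, a bacterial cell wall component sensed by Toll-like receptor 4) at 10 ng/ml for 4 h. Silica-LPS cells had 50 nm amorphous silica in place of SPIO, and LPS cells had LPS with no particle. SPIO cells and Silica cells had a particle for 24 h and then plain medium for 4 h, and CON cells had medium alone, with no times on their labels. Particle concentration is written as 25 mg/ml in the study's design text, a unit that could not be checked here. The labels call the 3 samples of a group biological replicates without saying if each came from its own mouse, so p-values measure only the spread between these samples.

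A Rab switches between a GTP-bound form, which sits on a membrane through a lipid tail and recruits effectors, and a GDP-bound form, which is extracted into the cytosol. Exchange factors load GTP and GTPase activators end the active state. In a macrophage, Rab5 isoforms mark the early endosome and the new phagosome, Rab7 marks the late endosome and the phagosome that fuses with lysosomes, and several Rabs carry Toll-like receptor 4 to or from the cell surface. Particles such as SPIO and silica enter these cells along the same endocytic route.

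Values are log2 signals, on which 1 unit is a factor of 2. A change is the mean log2 signal of the first-named group minus that of the other, followed by its standard error (SE), with 3 arrays in each group. A gene is called changed at a Benjamini-Hochberg adjusted p under 0.05 over all 12393 genes in limma. Lack of overlap between the arrays of 2 groups is description only, as it was common among the 50 Rab genes. It held for 37 in LPS against CON, 30 in SPIO against CON and 26 in SPIO-LPS against LPS. Among the rest, it held for 21 in Silica against CON, 11 in Silica-LPS against LPS and 32 in SPIO against Silica. In SPIO-LPS against Silica-LPS it held for 25. The share over all genes was not computed. The median SE over the 50 Rab genes was 0.054 for a comparison of 2 groups, so the half-width of a 95% interval was 0.12 for the median gene. Array medians ran from 6.22 to 6.27 with LPS and from 6.35 to 6.43 without it, and arrays of 1 group correlated at 0.997 to 0.999 over genes.

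All 10 macrophage markers were measured, among them Lyz2 at a mean log2 signal of 14.45 and Csf1r at 13.92 in CON. With SPIO 2 were higher and 6 lower, and the log2 of their summed linear signal was 15.75 to 15.76 in SPIO and 15.82 to 15.83 in CON. Fibroblast and stroma markers were also bright, with a summed log2 level of 14.42 to 14.46 in SPIO and 14.70 to 14.73 in CON, and 5 of 10 were lower after SPIO. Of the neutrophil and precursor markers 7 of 9 were lower after SPIO and 1 was higher, at a summed log2 level of 13.93 to 13.98 in SPIO and 14.39 to 14.48 in CON. Megakaryocyte and platelet markers stood at 12.81 to 12.89 in SPIO and 13.69 to 13.76 in CON, and 2 of 4 were lower. Their part in the Rab changes was not tested, and in bulk RNA fewer cells of a type and less RNA per cell cannot be told apart. B cell, T and NK cell and mast cell markers stayed at summed levels of 6.00 to 6.67, near the array medians, and dendritic cell markers at 7.41 to 7.84. No marker can stand at 0 on this scale.

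The promoters of 4 Rab genes on which the results below turn are shown first. Rab20 had the largest rise with LPS, Rab40c and Rab9 the largest rises with SPIO, and Rab31 the largest difference between the SPIO effects with and without LPS. Each run is the RefSeq window on GRCm38.p6 from 250 bases before to 50 bases after the annotated start, read 5′ to 3′ on the strand of the gene. All 4 genes lie on the minus strand, at chr8:11478591-11478890 for Rab20, chr17:25919665-25919964 for Rab40c, chrX:166479818-166480117 for Rab9 and chr17:65772703-65773002 for Rab31. Capitals mark a match to any of 5 motifs searched on both strands.
Rab20: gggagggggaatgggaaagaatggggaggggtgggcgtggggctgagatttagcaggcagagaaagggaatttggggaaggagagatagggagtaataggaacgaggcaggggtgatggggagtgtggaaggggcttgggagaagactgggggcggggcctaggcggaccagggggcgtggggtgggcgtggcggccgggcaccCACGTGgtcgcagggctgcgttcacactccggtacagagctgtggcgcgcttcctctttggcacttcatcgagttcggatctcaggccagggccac
Rab40c: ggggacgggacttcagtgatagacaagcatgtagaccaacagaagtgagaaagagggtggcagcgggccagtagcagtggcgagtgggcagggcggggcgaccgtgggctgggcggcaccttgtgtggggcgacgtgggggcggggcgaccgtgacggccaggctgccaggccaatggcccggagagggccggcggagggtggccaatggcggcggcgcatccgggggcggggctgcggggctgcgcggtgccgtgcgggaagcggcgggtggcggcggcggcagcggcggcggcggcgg
Rab9: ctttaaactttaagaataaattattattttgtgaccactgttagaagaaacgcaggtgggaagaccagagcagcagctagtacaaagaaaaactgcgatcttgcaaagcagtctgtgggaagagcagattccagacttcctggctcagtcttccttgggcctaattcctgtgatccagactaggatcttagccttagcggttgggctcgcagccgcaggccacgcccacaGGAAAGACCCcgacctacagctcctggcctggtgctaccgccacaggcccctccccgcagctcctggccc
Rab31: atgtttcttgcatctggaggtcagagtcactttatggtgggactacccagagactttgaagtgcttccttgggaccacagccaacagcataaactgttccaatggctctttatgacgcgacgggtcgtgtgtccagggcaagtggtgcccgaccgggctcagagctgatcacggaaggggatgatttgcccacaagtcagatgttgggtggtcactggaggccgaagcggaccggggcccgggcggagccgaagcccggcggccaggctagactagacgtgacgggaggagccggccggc

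The motifs searched were a kappaB form (3 G, 2 free bases, 3 T and 2 C), an interferon response form (GAAA, 2 free bases and GAAA again), TGANTCA (an AP-1 form), CACGTG (an E-box) and TGACNNNGC (an antioxidant response form). The capitals in the Rab20 window are CACGTG, which also stood in windows of Rab5a, Rab21, Rab23, Rab24 and Rab27a and in 7.15% of all 32851 promoter windows. Those in the Rab9 window are the kappaB form on the opposite strand, found also for Rab15 and Rab28 and in 1.63% of all windows. The windows of Rab40c and Rab31 held none of the 5. The antioxidant response form stood in windows of 9 Rab genes, among them Rab7, Rab8a and Rab22a, and in 12.39% of all windows. TGANTCA stood in windows of Rab15 and Rab34 and in 7.81% of all windows, and the interferon response form in no Rab window and in 3.44% of all windows. In Rab24 the E-box and the antioxidant response form overlapped. Windows were found for 42 of the 50 genes, and these genes had 54 windows. Of the 54, 18.52% held the antioxidant response form, 11.11% CACGTG, 5.56% the kappaB form and 3.7% TGANTCA. These shares were not tested against those of all windows. A match of letters is not evidence of binding.

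**Figure D1:**
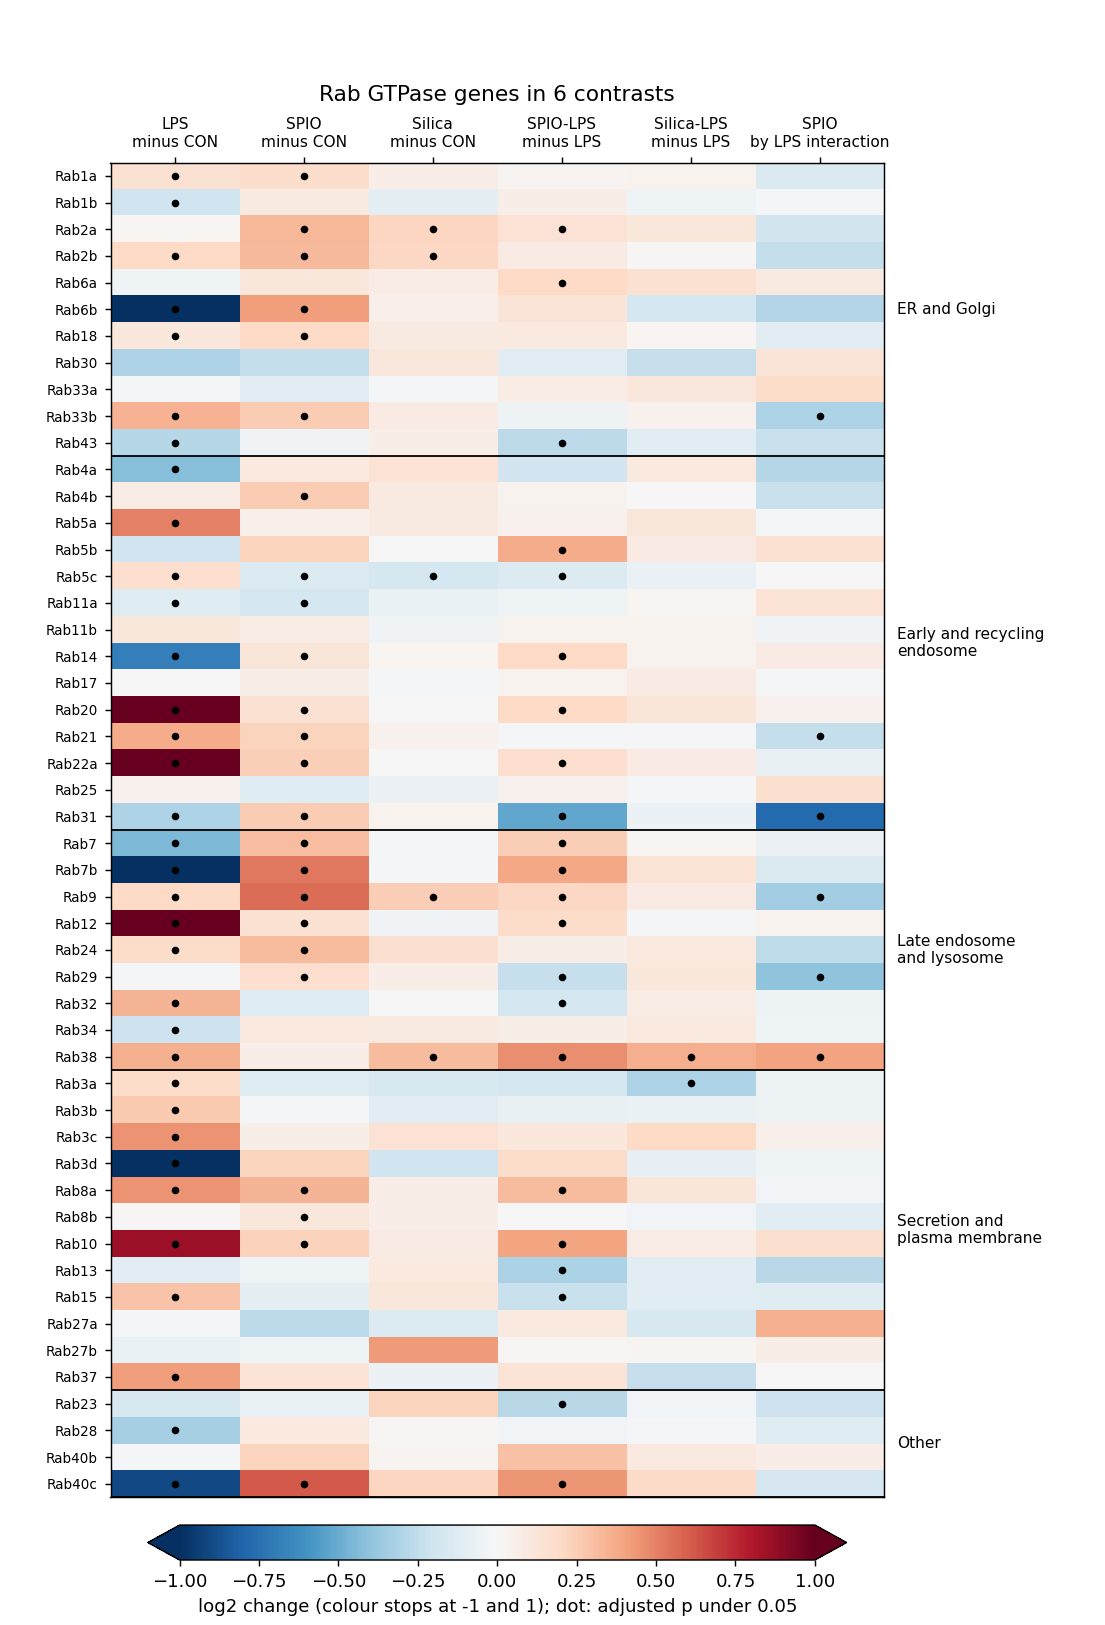
Log2 change of the 50 Rab genes (rows, grouped by role) in 6 contrasts (columns). Colour gives the change and a dot marks a gene called at adjusted p under 0.05. The LPS against CON column holds the strongest colours, with Rab20 up by 2.18 and Rab6b down by 1.63, and the columns for silica hold few dots.

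LPS without particles changed Rab genes in both directions. The test called 21 of the 50 higher and 13 lower, where 22.2% of all genes tested were higher and 36.1% lower. The median change over the 50 was 0.01, against -0.01 over all genes. When the arrays were scaled by cyclic loess instead, the split was 27 higher and 9 lower, and the median was 0.16, against 0.01 over all genes. In that setting 55.6% of all genes tested were called, against 58.2% as reported. Beside this, 3 of 10 macrophage markers were higher and 6 lower. Their summed log2 level was 15.97 in LPS and 15.82 to 15.83 in CON. Fibroblast and stroma markers stood at 14.35 to 14.42 in LPS and 14.70 to 14.73 in CON, with 3 higher and 6 lower of 10. Neutrophil and precursor markers stood at 14.31 to 14.35 in LPS and 14.39 to 14.48 in CON, with 1 higher and 5 lower of 9. The part of these cells was not tested. Of the called genes 6 moved at least 2-fold, where 11.4% of all genes were called at that size.

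The rises were led by Rabs of the endosome and of delivery to the surface. Rab20, which acts on early endosomes and maturing phagosomes, had log2 signals of 9.42, 9.44 and 9.52 in LPS and 7.24, 7.33 and 7.27 in CON. All LPS arrays stood more than 2 log2 units above all CON arrays, a 4.54-fold rise (2.18 ± 0.053, adjusted p = 4.55e-15). Rab22a, an early endosome Rab that sorts cargo to recycling, had 9.26, 9.20 and 9.35 in LPS and 7.86, 7.89 and 8.002 in CON. Its rise was 2.55-fold (1.35 ± 0.056, adjusted p = 3.92e-12). The groups were far apart on this probe set, but the other 2 probe sets of Rab22a changed by 0.06 and 0.05 and were not called, and the mean of the 3 rose by 0.49.

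Rab12, which directs transferrin receptor from recycling endosomes to lysosomes, had 9.98, 10.10 and 9.96 in LPS and 8.88, 8.87 and 8.90 in CON. It rose 2.19-fold (1.13 ± 0.054, adjusted p = 2.39e-11), with no overlap of arrays. Rab10, which carries Toll-like receptor 4 to the plasma membrane of macrophages, had 11.59, 11.61 and 11.69 in LPS and 10.71, 10.86 and 10.76 in CON. That rise was 1.81-fold (0.85 ± 0.047, adjusted p = 1.24e-10), and the other 2 probe sets of Rab10 rose by 1.41 and 0.78. Rab5a, the best known early endosome Rab, had 11.18, 11.06 and 11.06 in LPS and 10.64, 10.54 and 10.60 in CON, again with every LPS array on the higher side. It rose 1.42-fold (0.50 ± 0.058, adjusted p = 1.15e-06).

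The largest falls came from different roles. Rab6b, a Golgi Rab best known from neurons, had 4.63, 4.70 and 4.69 in LPS and 6.21, 6.30 and 6.39 in CON. Its fall was 3.09-fold (-1.63 ± 0.12, adjusted p = 7.73e-09), and the LPS arrays lay in the dim part of the scale, where RMA signals understate changes. Rab3d, a Rab of secretory granules, had 7.27, 7.08 and 7.23 in LPS and 8.55, 8.61 and 8.61 in CON. It fell 2.63-fold (-1.39 ± 0.10, adjusted p = 4.27e-09). 2 of its other 3 probe sets fell by 1.04 and 1.11 and the dimmest changed by -0.03, and the mean of all fell by 0.89.

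Rab7b, which lowers Toll-like receptor 4 signalling in macrophages by sending the receptor to lysosomes, had 8.75, 8.77 and 8.95 in LPS and 10.07, 10.17 and 10.21 in CON. The groups stood more than 1 log2 unit apart, a 2.51-fold fall (-1.33 ± 0.058, adjusted p = 6.77e-12), and its second probe set fell by 1.11. Rab40c, a Rab with a SOCS box that joins a ubiquitin ligase, had 7.51, 7.29 and 7.44 in LPS and 8.22, 8.32 and 8.40 in CON. It fell 1.87-fold (-0.90 ± 0.076, adjusted p = 2.63e-08), and the mean of its probe sets fell by 0.48. Rab14, which works between Golgi, endosomes and phagosomes, had 12.21, 12.22 and 12.29 in LPS and 12.94, 12.90 and 12.92 in CON. The arrays of the groups did not overlap, and the fall was 1.60-fold (-0.68 ± 0.036, adjusted p = 7.41e-11). The probe set used for Rab14, like that for Rab4a, is of a kind that can match several transcripts, but all 6 probe sets of Rab14 were lower.

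**Figure D2:**
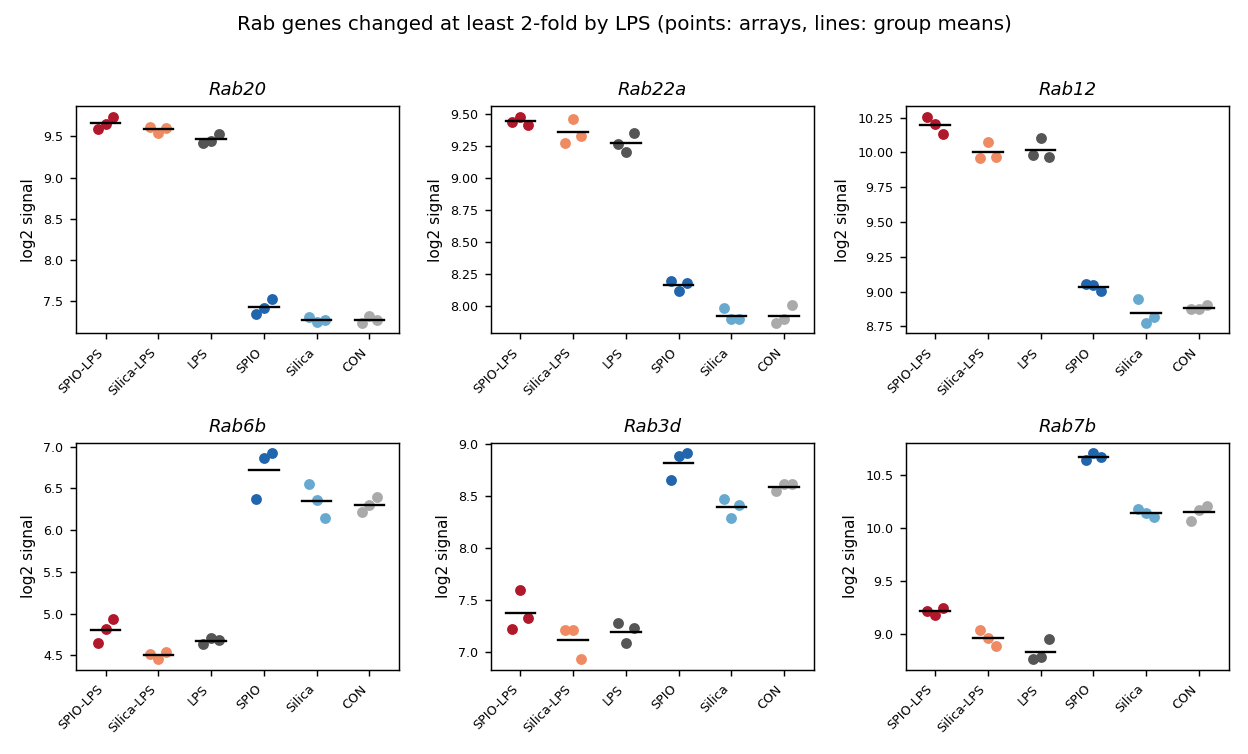
Log2 signal of each array (points) and group mean (lines) for Rab20, Rab22a, Rab12, Rab6b, Rab3d and Rab7b in the 6 groups, each panel with its own axis. The LPS groups stand above the groups without LPS for Rab20, Rab22a and Rab12 and below them for Rab6b, Rab3d and Rab7b, whatever the particle.

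Close relatives did not all move alike. Rab5c rose with LPS by 0.17 ± 0.042 beside Rab5a, while Rab5b, another isoform, changed by -0.19 ± 0.099 and was not called. Rab8a, which drives exocytosis, rose by 0.45 ± 0.049, while its relative Rab8b changed by 0.01 with a 95% interval half-width of 0.078. Rab32 and Rab38, which supply lysosome-related organelles such as melanosomes, rose by 0.34 ± 0.052 and 0.35 ± 0.084. Rab7, the main late endosome Rab, fell by 0.45 (SE 0.041), but its other probe set changed by 0.07, and it fell by 0.30 with cyclic loess. The differences between relatives were not tested.

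By role, 7 of 12 Rabs of secretion and surface transport were higher with LPS and 1 was lower. Late endosome, lysosome and autophagy Rabs split into 5 higher and 3 lower of 9, early and recycling endosome Rabs into 5 and 4 of 14, and ER and Golgi Rabs into 4 and 3 of 11. The secretion group included Rab3a, Rab3b, Rab3c and Rab37, whose signals stayed below the lowest array median on all arrays. Several calls were lost when 1 array was left out, while the changes kept their direction. Rab11a, the recycling endosome Rab, fell by 0.12 (adjusted p = 0.00919), lost its call without CON array 3 (adjusted p = 0.0518), and its second probe set rose by 0.28. Rab18, Rab3a, Rab3b, Rab3c and Rab4a also lost their calls when 1 of several arrays was left out, with adjusted p up to 0.156. Rab31 fell by 0.31 on the probe set used and rose by 0.71 on a dimmer one.

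SPIO without LPS raised more Rab genes than it lowered. The test called 22 of the 50 higher, where 19.6% of all genes tested were, and 2 lower, where 14.2% were. The median change was 0.12 over the 50 and -0.01 over all genes, and 36 of the 50 changes were positive. No Rab change reached 2-fold, where 0.904% of all genes did so and were called.

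Rab40c, Rab9 and Rab7b rose most. Rab40c had log2 signals of 8.82, 8.96 and 9.001 in SPIO and 8.22, 8.32 and 8.40 in CON, a 1.53-fold rise (0.61 ± 0.076, adjusted p = 1.22e-05). Every SPIO array exceeded every CON array. Rab9, which returns mannose 6-phosphate receptors from late endosomes to the Golgi, had 10.46, 10.51 and 10.55 in SPIO and 9.89, 9.97 and 9.98 in CON. This 1.47-fold rise (0.56 ± 0.050, adjusted p = 3.7e-07) also showed no overlap. Rab7b had 10.64, 10.71 and 10.68 in SPIO and 10.07, 10.17 and 10.21 in CON. It rose 1.44-fold (0.53 ± 0.058, adjusted p = 3.56e-06), and its second probe set rose by 0.72.

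Rab6b had 6.38, 6.86 and 6.92 in SPIO and 6.21, 6.30 and 6.39 in CON. The lowest SPIO array lay below the highest CON array, and the 1.34-fold rise (0.42 ± 0.12, adjusted p = 0.016) lost its call without CON array 1, SPIO array 2 or SPIO array 3 (adjusted p = 0.0636, 0.0748 and 0.0868), and in a fit to the SPIO and CON arrays alone (adjusted p = 0.0592). Rab8a had 9.48, 9.46 and 9.42 in SPIO and 9.11, 9.07 and 9.15 in CON, with a clear gap between the groups. Its rise was 1.27-fold (0.34 ± 0.049, adjusted p = 5.24e-05). Rab2a and Rab2b, which act between ER and Golgi, rose by 0.33 ± 0.051 and 0.32 ± 0.053. Rab24, which takes part in autophagy, rose by 0.32 ± 0.054, and Rab7 by 0.31 ± 0.041.

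The 2 falls were small. Rab11a had 11.26, 11.27 and 11.29 in SPIO and 11.44, 11.42 and 11.51 in CON, a 1.13-fold fall (-0.18 ± 0.035, adjusted p = 0.000923) with no overlap. With the mean of its probe sets the change was -0.064 and was not called (adjusted p = 0.198). Rab5c had 10.53, 10.50 and 10.51 in SPIO and 10.65, 10.72 and 10.58 in CON, a 1.10-fold fall (-0.14 ± 0.042, adjusted p = 0.018). Its call was lost without CON array 2 (adjusted p = 0.0959) or SPIO array 2 (adjusted p = 0.058), and in a fit to the SPIO and CON arrays alone (adjusted p = 0.088).

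The rises lay in every role. They made up 6 of 9 late endosome, lysosome and autophagy Rabs, 6 of 11 ER and Golgi Rabs, 6 of 14 early and recycling endosome Rabs and 3 of 12 secretion Rabs. Neither fall lay outside the early and recycling group. Rab12, Rab14, Rab20 and Rab8b, with rises of 0.11 to 0.15, lost their calls when 1 of several arrays was left out, at adjusted p up to 0.176. Rab10 rose by 0.23 ± 0.047 on the probe set used, while a dimmer probe set fell by 0.20 (adjusted p = 0.0329) and the other was not called. The mean of the 3 changed by 0.069 and was not called (adjusted p = 0.228). Of the 15 higher or lower genes with several probe sets, 10 had another probe set called in the same direction. For 4 no other probe set was called, and 1 had another called the opposite way. In LPS against CON the same direction held for 9 of 19. There 8 had no other probe set called, and 2 had another called the opposite way.

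**Figure D3:**
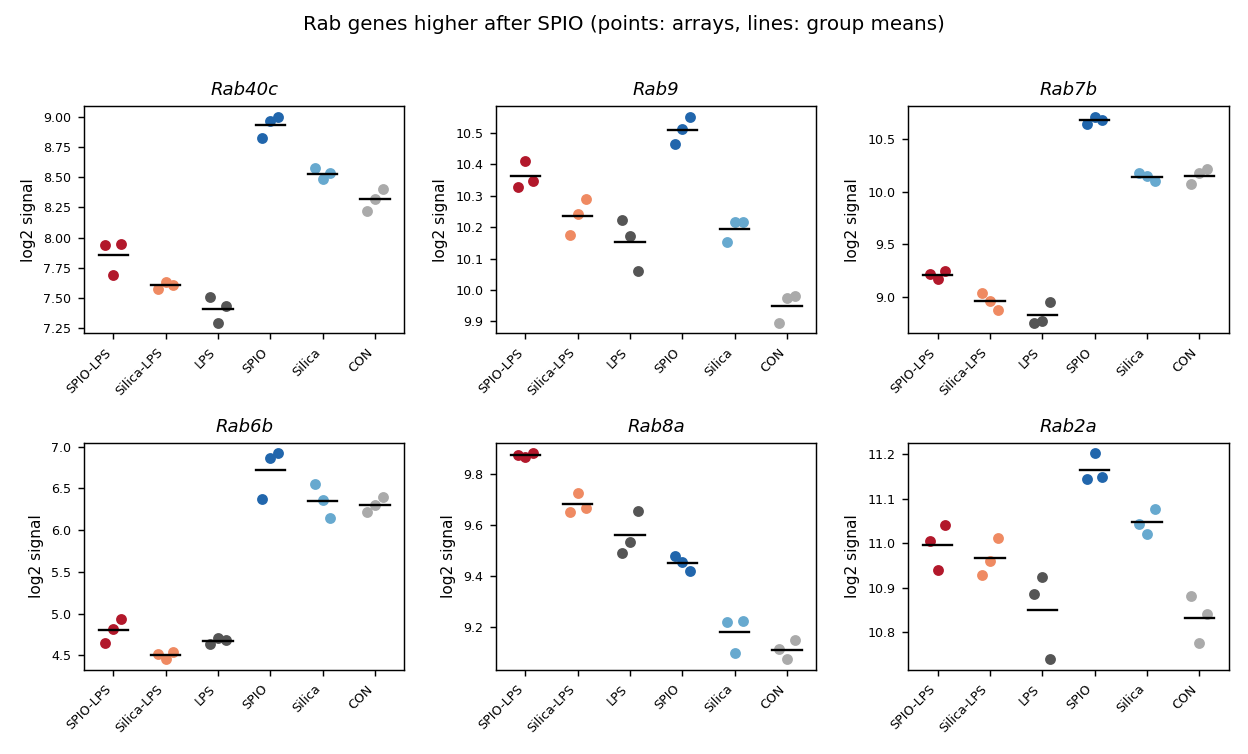
Log2 signal of each array (points) and group mean (lines) for Rab40c, Rab9, Rab7b, Rab6b, Rab8a and Rab2a in the 6 groups, each panel with its own axis. SPIO arrays stand above CON arrays in every panel except for 1 SPIO array of Rab6b, and Rab8a is highest in SPIO-LPS, at 9.87, 9.87 and 9.88.

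Under LPS, SPIO pretreatment raised 14 of the 50 Rab genes and lowered 8, where 18.2% of all genes tested were higher and 14.6% lower in SPIO-LPS than in LPS. The median change was 0.06 over the 50 and 0.01 over all genes. Beside this, fibroblast and stroma markers stood at a summed log2 level of 14.05 to 14.10 in SPIO-LPS and 14.35 to 14.42 in LPS, with 6 of 10 lower. Neutrophil and precursor markers stood at 13.90 to 13.94 in SPIO-LPS and 14.31 to 14.35 in LPS, with 6 of 9 lower and 1 higher. Megakaryocyte and platelet markers stood at 12.88 to 12.94 in SPIO-LPS and 13.60 to 13.66 in LPS, with 2 of 4 lower, and the part of these cells was not tested. Of the 9 late endosome, lysosome and autophagy Rabs, 5 were higher and 2 lower.

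Rab38 had log2 signals of 6.72, 6.41 and 6.76 in SPIO-LPS and 6.17, 6.17 and 6.14 in LPS. It rose 1.38-fold (0.47 ± 0.084, adjusted p = 0.000436), and the groups did not overlap. Rab40c had 7.94, 7.69 and 7.95 in SPIO-LPS and 7.51, 7.29 and 7.44 in LPS, a 1.36-fold rise (0.44 ± 0.076, adjusted p = 0.000261). Rab10 had 11.99, 12.01 and 12.07 in SPIO-LPS and 11.59, 11.61 and 11.69 in LPS, a 1.31-fold rise (0.39 ± 0.047, adjusted p = 8.04e-06). Both genes were higher on every SPIO-LPS array than on any LPS array. With the mean of its probe sets the change of Rab40c was 0.22 and was not called (adjusted p = 0.105), and that of Rab10 was 0.15 (adjusted p = 0.0101). Rab7b had 9.21, 9.17 and 9.24 in SPIO-LPS and 8.75, 8.77 and 8.95 in LPS, a 1.31-fold rise (0.38 ± 0.058, adjusted p = 8.15e-05). Rab5b had 5.91, 6.20 and 6.14 in SPIO-LPS and 5.82, 5.61 and 5.71 in LPS, a 1.29-fold rise (0.37 ± 0.099, adjusted p = 0.00899). The groups did not overlap, but both lay below the lowest array median.

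Rab31, a relative of Rab22a that moves cargo from the trans-Golgi network to endosomes, fell most. It had 10.39, 10.34 and 10.25 in SPIO-LPS and 10.77, 10.81 and 10.94 in LPS, a 1.43-fold fall (-0.52 ± 0.057, adjusted p = 3.4e-06) with a clear gap. Rab13, known from epithelial tight junctions, had 6.73, 6.39 and 6.59 in SPIO-LPS and 6.85, 6.84 and 6.98 in LPS, a 1.25-fold fall (-0.32 ± 0.073, adjusted p = 0.00318). Rab23, a regulator of Hedgehog signalling, had 7.16, 6.97 and 7.12 in SPIO-LPS and 7.39, 7.34 and 7.34 in LPS, a 1.21-fold fall (-0.28 ± 0.067, adjusted p = 0.00451). In all 3 genes the groups were apart. The mean of the probe sets of Rab23 changed by -0.075 and was not called (adjusted p = 0.523), and Rab13 lost its call in a fit to the SPIO-LPS and LPS arrays alone (adjusted p = 0.0516).

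Rab43, a Golgi Rab, had 7.76, 7.70 and 7.84 in SPIO-LPS and 8.07, 7.97 and 8.03 in LPS, a 1.2-fold fall (-0.26 ± 0.053, adjusted p = 0.00133). The mean of its probe sets changed by -0.13 and was not called (adjusted p = 0.145). Rab29, which recruits the kinase LRRK2 to the trans-Golgi network and to stressed lysosomes, had 8.57, 8.58 and 8.63 in SPIO-LPS and 8.83, 8.83 and 8.82 in LPS. It fell 1.17-fold (-0.23 ± 0.041, adjusted p = 0.000358), and neither gene overlapped between groups. Rab12, Rab15, Rab20, Rab22a, Rab2a, Rab32 and Rab5c lost their calls here when 1 of several arrays was left out, at adjusted p up to 0.183. Rab22a rose by 0.17 on the probe set used and fell by 0.43 on a dimmer one.

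The SPIO effects with and without LPS come from separate arrays. Of the 22 genes that rose with SPIO alone, 11 also rose under LPS, namely Rab2a, Rab7, Rab7b, Rab8a, Rab9, Rab10, Rab12, Rab14, Rab20, Rab22a and Rab40c. They made up 50% of the Rab genes higher with SPIO and 78.6% of the 14 higher in SPIO-LPS, where over all genes tested these shares were 60.5% and 65.3%. Rab29 and Rab31 fell under LPS instead, and the other 9 were not called. The sign of the change was the same for 40 of the 50 genes (80%), and for 71.8% of all genes tested.

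**Figure D4:**
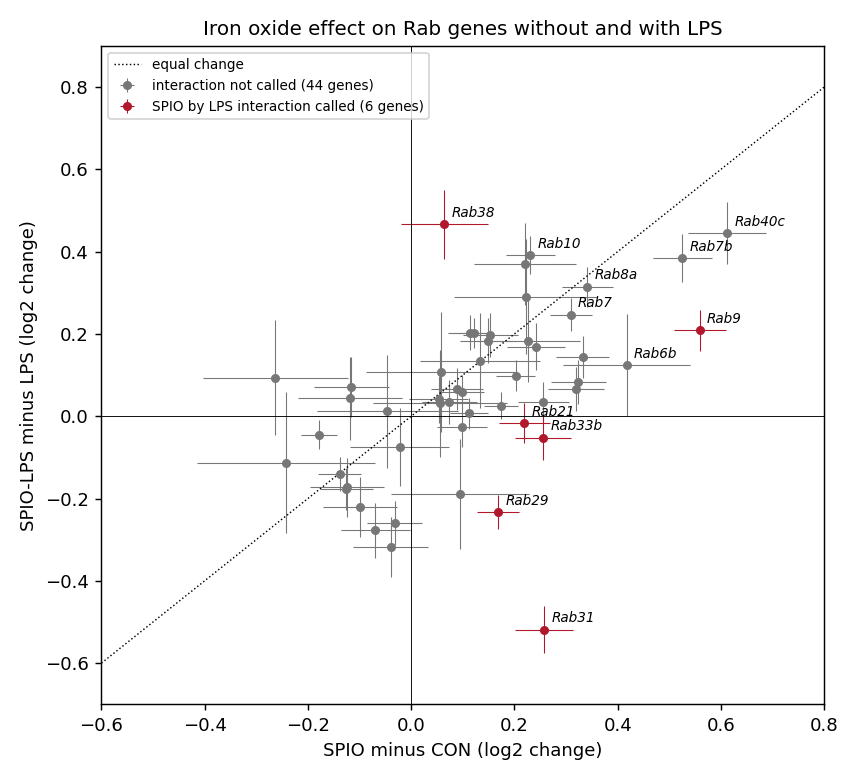
Log2 change of the 50 Rab genes for SPIO against CON (horizontal axis) and SPIO-LPS against LPS (vertical axis), with bars of 1 SE, a dotted line of equal change and red points for the 6 genes with a called interaction. Rab40c lies far to the upper right, at 0.61 and 0.44, while Rab31 lies at 0.26 and -0.52 and Rab29 at 0.17 and -0.23.

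The difference between the SPIO effects with and without LPS was tested as an interaction, in which 1 Rab gene was called positive and 5 negative, where 3.73% and 5.07% of all genes tested were. A negative value means that the SPIO effect was lower under LPS. Rab31 stood apart at -0.78 ± 0.081 (adjusted p = 1.14e-05). It had 11.38, 11.41 and 11.44 in SPIO and 11.15, 11.09 and 11.21 in CON, where SPIO was the higher, and the order was the reverse under LPS. A dimmer probe set of Rab31 had an interaction of -1.43. Rab29 followed at -0.40 ± 0.058 (adjusted p = 0.000278), with 8.99, 8.98 and 9.04 in SPIO and 8.89, 8.80 and 8.81 in CON.

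Rab9 had an interaction of -0.35 ± 0.071 (adjusted p = 0.00424). It rose in both settings, by 0.21 ± 0.050 under LPS and by 0.56 ± 0.050 without it. Under LPS the SPIO-LPS arrays had 10.33, 10.41 and 10.35 and the LPS arrays 10.22, 10.17 and 10.06, with no overlap. Rab33b, which acts at the Golgi and in autophagy, and Rab21, which takes part in integrin uptake, had interactions of -0.31 ± 0.077 (adjusted p = 0.0183) and -0.24 ± 0.070 (adjusted p = 0.0482). Both rose with SPIO alone, by 0.26 and 0.22, and changed by -0.05 and -0.02 under LPS. Rab38 had the positive interaction, 0.40 ± 0.12 (adjusted p = 0.0481), with 5.86, 5.95 and 5.81 in SPIO and 5.78, 5.72 and 5.92 in CON, which overlapped. The calls of Rab21, Rab33b and Rab38 were each lost without 1 of several arrays (adjusted p up to 0.119), and the count of 6 became 3 without LPS array 1 or without SPIO array 3. Over all genes tested the share called was then 7.75% and 7.23%, against 8.8% with all arrays.

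**Figure D5:**
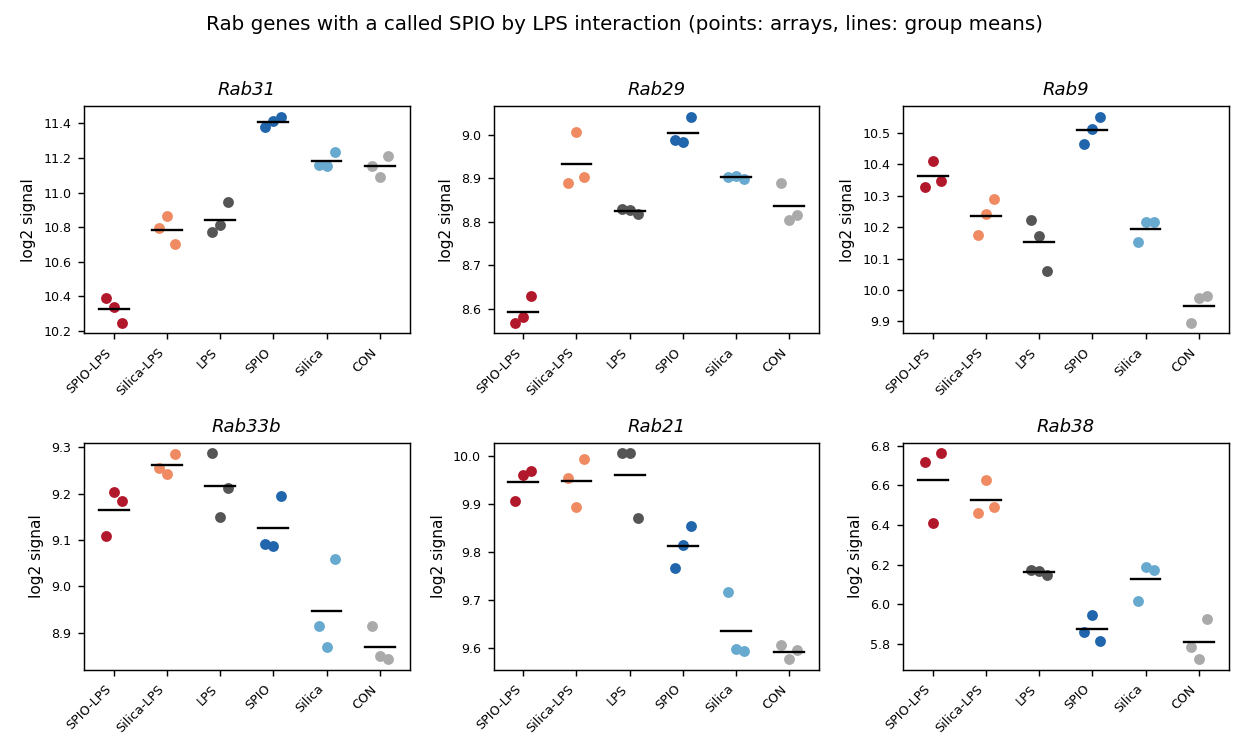
Log2 signal of each array (points) and group mean (lines) for the 6 Rab genes with a called SPIO by LPS interaction, each panel with its own axis. For Rab31 and Rab29 the SPIO-LPS arrays are the lowest of the 18 and the SPIO arrays stand above the CON arrays.

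Silica changed few Rab genes. Against CON 4 of the 50 were higher and 1 was lower, where 2.45% and 1.57% of all genes tested were. Fibroblast and stroma markers stood at a summed log2 level of 14.81 to 14.90 in Silica and 14.70 to 14.73 in CON, with 3 higher and 1 lower of 10. Megakaryocyte and platelet markers stood at 13.48 to 13.50 in Silica and 13.69 to 13.76 in CON, with 2 of 4 lower. The part of these cells in the Rab changes was not tested. Rab38 had log2 signals of 6.02, 6.19 and 6.17 in Silica and 5.78, 5.72 and 5.92 in CON (0.32 ± 0.084, 1.25-fold, adjusted p = 0.0471). Rab9 had 10.15, 10.21 and 10.22 in Silica and 9.89, 9.97 and 9.98 in CON (0.25 ± 0.050, 1.19-fold, adjusted p = 0.0129). Neither gene overlapped between the groups. Rab2a had 11.04, 11.02 and 11.08 in Silica and 10.88, 10.78 and 10.84 in CON (0.21 ± 0.051, 1.16-fold, adjusted p = 0.0289), and Rab2b rose by 0.21 ± 0.053 (adjusted p = 0.0433). Rab5c had 10.48, 10.48 and 10.48 in Silica and 10.65, 10.72 and 10.58 in CON (-0.17 ± 0.042, 1.13-fold, adjusted p = 0.0294). All of these groups were apart, as they were for 21 of the 50 Rab genes. The count of 5 became 1 without CON array 1 or 2, 3 without CON array 3 and 2 without Silica array 1. It became 3 without Silica array 2 and 0 without Silica array 3, where limma still had 10 at an unadjusted p under 0.05. Without 1 array 1.64% to 3.07% of all genes tested were called, against 4.02% with all. In a fit to the Silica and CON arrays alone 1 was called, where 0.888% of all genes tested were. The mean of the probe sets gave no call for Rab2a (0.18, adjusted p = 0.057) or Rab2b (0.074, adjusted p = 0.499).

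Under LPS, 1 Rab gene was higher after silica and 1 lower, where 1.89% and 0.976% of all genes tested were. Beside this, 2 of 10 fibroblast and stroma markers were higher and 1 was lower, at a summed log2 level of 14.44 to 14.48 in Silica-LPS and 14.35 to 14.42 in LPS. Of the megakaryocyte and platelet markers 2 of 4 were lower, at 13.44 in Silica-LPS and 13.60 to 13.66 in LPS, and the part of either was not tested. Rab38 had 6.46, 6.63 and 6.49 in Silica-LPS and 6.17, 6.17 and 6.14 in LPS (0.36 ± 0.084, 1.29-fold, adjusted p = 0.0297). Rab3a, a synaptic vesicle Rab, had 5.62, 5.67 and 5.87 in Silica-LPS and 5.95, 6.08 and 6.07 in LPS (-0.31 ± 0.072, 1.24-fold, adjusted p = 0.0297), on a probe set below the lowest array median. The arrays did not overlap for either gene, as for 11 of the 50 Rab genes in all. The count of 2 became 1 without LPS array 1 or Silica-LPS array 3, and 0 without LPS array 2 or 3 or Silica-LPS array 1 or 2, where 5 to 9 were at an unadjusted p under 0.05 in limma. Without 1 array 1.5% to 2.69% of all genes tested were called, against 2.86% with all. In a fit to the Silica-LPS and LPS arrays alone 0 were called and 6 had an unadjusted p under 0.05. Of all genes tested 0.508% were called in that fit. The interaction of silica with LPS was called for 0 of the 50 in limma, where 0.0161% of all genes tested were, and 5 had an unadjusted p under 0.05.

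Set directly against silica, SPIO had 20 Rab genes higher and 5 lower, where 14.6% and 11.6% of all genes tested were. Fibroblast and stroma markers stood at a summed log2 level of 14.42 to 14.46 in SPIO and 14.81 to 14.90 in Silica. Neutrophil and precursor markers stood at 13.93 to 13.98 in SPIO and 14.24 to 14.42 in Silica. Megakaryocyte and platelet markers stood at 12.81 to 12.89 in SPIO and 13.48 to 13.50 in Silica. The part of these cells was not tested. Rab7b had log2 signals of 10.64, 10.71 and 10.68 in SPIO and 10.18, 10.14 and 10.10 in Silica (0.53 ± 0.058, 1.45-fold, adjusted p = 4.58e-06). Rab3d had 8.65, 8.88 and 8.91 in SPIO and 8.47, 8.29 and 8.41 in Silica (0.42 ± 0.10, 1.34-fold, adjusted p = 0.00526). Rab40c had 8.82, 8.96 and 9.001 in SPIO and 8.58, 8.48 and 8.53 in Silica (0.40 ± 0.076, 1.32-fold, adjusted p = 0.000961). In each of these genes every SPIO array was above every Silica array. Rab27b, a Rab of secretory granules, had 3.71, 3.88 and 3.68 in SPIO and 4.30, 4.08 and 4.30 in Silica (-0.47 ± 0.14, 1.39-fold, adjusted p = 0.018), close to the floor of the scale.

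Rab23 had 7.53, 7.43 and 7.38 in SPIO and 7.84, 7.58 and 7.78 in Silica (-0.29 ± 0.067, 1.22-fold, adjusted p = 0.00459), and Rab38 had 5.86, 5.95 and 5.81 in SPIO and 6.02, 6.19 and 6.17 in Silica (-0.25 ± 0.084, 1.19-fold, adjusted p = 0.0371). For both genes the SPIO arrays were the lower, without overlap. The calls of Rab27b and Rab38 were lost when 1 of 4 arrays was left out, at adjusted p of 0.052 to 0.126. Rab38 also lost it with a replicate block (adjusted p = 0.051). With the mean of the probe sets Rab23 changed by -0.16 and was not called (adjusted p = 0.149), and Rab27b fell by 0.21. The count of 25 became 16, 12 and 13 without Silica array 1, 2 and 3, and 16, 15 and 14 without SPIO array 1, 2 and 3. The share of all genes tested that was called fell as well, from 26.1% to between 20.4% and 24.4%.

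With LPS, 9 Rab genes were higher in SPIO-LPS than in Silica-LPS and 6 lower, where 12.2% and 12.9% of all genes tested were. Fibroblast and stroma markers stood at a summed log2 level of 14.05 to 14.10 in SPIO-LPS and 14.44 to 14.48 in Silica-LPS. Neutrophil and precursor markers stood at 13.90 to 13.94 in SPIO-LPS and 14.26 to 14.32 in Silica-LPS. Megakaryocyte and platelet markers stood at 12.88 to 12.94 in SPIO-LPS and 13.44 in Silica-LPS. The part of these cells was not tested. Rab37, a Rab of secretory granules, had 4.98, 4.99 and 4.95 in SPIO-LPS and 4.68, 4.55 and 4.61 in Silica-LPS (0.36 ± 0.12, 1.29-fold, adjusted p = 0.0311). Rab10 had 11.99, 12.01 and 12.07 in SPIO-LPS and 11.72, 11.69 and 11.72 in Silica-LPS (0.31 ± 0.047, 1.24-fold, adjusted p = 0.000111). Rab5b had 5.91, 6.20 and 6.14 in SPIO-LPS and 5.85, 5.77 and 5.77 in Silica-LPS (0.29 ± 0.099, 1.22-fold, adjusted p = 0.0462). The SPIO-LPS arrays were the higher in all 3, but the calls of Rab37 and Rab5b were lost without 1 of 5 arrays, at adjusted p of 0.0601 to 0.166. Rab5b also lost its call in 5 other settings (adjusted p up to 0.061), and the mean of the probe sets of Rab10 rose by 0.16.

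Rab31 had 10.39, 10.34 and 10.25 in SPIO-LPS and 10.79, 10.86 and 10.70 in Silica-LPS (-0.46 ± 0.057, 1.38-fold, adjusted p = 1.84e-05). Rab29 had 8.57, 8.58 and 8.63 in SPIO-LPS and 8.89, 9.01 and 8.90 in Silica-LPS (-0.34 ± 0.041, 1.27-fold, adjusted p = 1.41e-05). Rab32 had 11.29, 11.27 and 11.40 in SPIO-LPS and 11.60, 11.56 and 11.57 in Silica-LPS (-0.25 ± 0.052, 1.19-fold, adjusted p = 0.0017). Here the SPIO-LPS arrays were the lower in all 3 genes.

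Set side by side, 12 Rab genes were higher both with LPS and with SPIO, and 6 were lower with LPS and higher with SPIO. A further 1 was lower in both, and 1 was higher with LPS and lower with SPIO. The shares of all genes in these classes were not computed. Both comparisons share the CON arrays and so are given only side by side. The changes with SPIO and with LPS were 0.61 and -0.90 for Rab40c, 0.53 and -1.33 for Rab7b, 0.42 and -1.63 for Rab6b and 0.31 and -0.45 for Rab7. For Rab20 they were 0.15 and 2.18, and for Rab10 0.23 and 0.85. No call was made in any of the 9 contrasts for 7 genes, namely Rab11b, Rab17, Rab25, Rab27a, Rab30, Rab33a and Rab40b. They are 14% of the 50, where 29.3% of all genes tested had no call. All of these except Rab11b stayed below the lowest array median on all arrays, as 12 of the 50 did.

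The genes that load, switch off and read Rabs were described from a list of 140 exchange factors, GTPase activators, effectors and prenylation and extraction factors, of which 82 were measured. With SPIO 40 of the 82 (48.8%) were higher and 8 (9.76%) lower, beside 19.6% and 14.2% of all genes tested. Rilpl2, listed as a Rab effector, rose by 1.02 ± 0.040. Tbc1d24, a TBC domain protein, rose by 0.93 ± 0.15, and Rab3gap2, a subunit of the Rab3 GTPase activator, by 0.84 ± 0.072. Tbc1d8, another TBC domain protein, fell by 0.73 (SE 0.089), Madd, an exchange factor for Rab3, by 0.59 (SE 0.092), and Lrrk1, a kinase that acts on Rab7, by 0.44 (SE 0.073).

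With LPS 16 of the 82 (19.5%) were higher and 46 (56.1%) lower, beside 22.2% and 36.1% of all genes tested. Rin2, an exchange factor for Rab5, rose by 1.86 ± 0.092, Inpp5b, a Rab-binding phosphoinositide phosphatase, by 1.69 ± 0.047, and Dennd1a, an exchange factor for Rab35, by 1.37 ± 0.066. Rab3il1, an exchange factor, fell by 2.74 (SE 0.075), Rab11fip5, an effector of Rab11, by 2.37 (SE 0.068) and Tbc1d24 fell by 2.31 (SE 0.15). Their log2 signals in LPS, against CON, were 6.18 and 8.92 for Rab3il1 and 6.31 and 8.67 for Rab11fip5.

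In SPIO-LPS against LPS 29 of the 82 (35.4%) were higher and 9 (11%) lower, beside 18.2% and 14.6% of all genes tested. Rabgap1l, a GTPase activator, rose by 2.09 ± 0.069, with mean log2 signals of 8.75 in SPIO-LPS and 6.66 in LPS. Tbc1d24 rose by 1.18 ± 0.15 and Rabep1, a Rab5 effector, by 0.70 ± 0.064. Tbc1d8 fell by 1.38 (SE 0.089), Rin2 by 0.91 (SE 0.092) and Sytl2, an effector of Rab27, by 0.47 (SE 0.060). With silica 4 of the 82 (4.88%) were higher and 1 (1.22%) lower, beside 2.45% and 1.57% of all genes tested. Tbc1d15, a GTPase activator for Rab7, rose by 0.34 ± 0.062, Dennd6a, an exchange factor for Rab14, by 0.30 ± 0.058 and Eea1, a Rab5 effector that tethers early endosomes, by 0.23 ± 0.043, while Rab3il1 fell by 0.29 (SE 0.075).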

How the data were processed

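Affymetrix arrays measured RNA of 18 macrophage cultures, 3 in each of 6 groups set by the sample titles. The deposited signals are on a log2 scale and came from RMA, per the submitters' processing notes, whose settings were not found in the sources. There were neither detection calls nor counts. Each group mean rests on 3 arrays, and the spread was estimated over all 18 arrays.

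Of 22690 probe sets, 64 were controls. The platform annotation gave 1 symbol for 20380, several for 691 and none for 1555, and only the first were used. The probe set with the highest mean stood for each of 12393 genes. In limma 3.58.1 (R 4.3.3) all 18 arrays entered a model of 6 group means, with 9 contrasts, eBayes and Benjamini-Hochberg adjustment over all genes in each contrast. The fit was checked on simulated data. Promoters came from RefSeq, build GRCm38.p6.

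The 50 genes and the lists of roles, markers, motifs and the Rab cycle were chosen with earlier results of these data known. Any Rab could be named; those given in full were the 5 largest called rises and falls in SPIO against CON, LPS against CON and SPIO-LPS against LPS, and the 3 largest elsewhere, and Rab cycle genes were the 3 largest each way. Alternatives were array weights, a variance trend, cyclic loess, other probe set rules, a filter on dim genes, compared groups alone, a replicate block and leaving out each array. Replicate numbers were not used as a pairing in the reported fit.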

Additional observations from a re-analysis of the deposited data

Results flagged for a closer look

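The effect of SPIO differed between cells with and without LPS, by the interaction test, for 6 of the 50 Rab genes (12%). Over all genes tested the share was 8.8%. The interaction was -0.78 for Rab31, -0.40 for Rab29, -0.35 for Rab9, -0.31 for Rab33b and -0.24 for Rab21, each lower with LPS, and 0.40 for Rab38, higher with LPS. For Rab31 and Rab29 the effect was a rise without LPS and a fall with it. Rab31, Rab29 and Rab9 kept their calls under all 20 alternatives. Rab38 lost its call in 15 of them, Rab21 in 14 and Rab33b in 3.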

How the results depend on the processing

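Between 12 and 16 Rab genes were called in SPIO against Silica when 1 array was left out, against 25 with all. The share of all genes tested that was called also moved, to 20.4% to 24.4% against 26.1% with all. The same ranges were 0 to 3 against 5 in Silica against CON, 0 to 1 against 2 in Silica-LPS against LPS, and 3 to 7 against 6 in the SPIO by LPS interaction. The shares of all genes were 1.64% to 3.07% against 4.02%, 1.5% to 2.69% against 2.86%, and 7.14% to 8.79% against 8.8%. The ranges of Rab calls were 31 to 33 against 34 in LPS against CON and 19 to 25 against 24 in SPIO against CON. In SPIO-LPS the ranges were 16 to 20 against 22 beside LPS and 10 to 12 against 15 beside Silica-LPS. In the order of these 4 contrasts, the shares of all genes were 53.9% to 56.9% against 58.2% and 27.6% to 32.8% against 33.8%. For the last 2 contrasts the shares were 27.3% to 32.0% against 32.7% and 20.5% to 22.0% against 25.1%. In a fit to the compared groups alone, the counts were 1 in Silica against CON, 13 in SPIO-LPS against LPS and 12 in SPIO against Silica. In Silica-LPS against LPS the count was 0, and 6 had an unadjusted p under 0.05 in limma. Fewer arrays estimate the spread in that fit. In the same order, the shares of all genes called were 0.888%, 22.7%, 21.2% and 0.508%, against 4.02%, 32.7%, 26.1% and 2.86% as reported. The interaction count was 10 with a variance trend and robust prior and 11 without the dimmest 33.3% of genes, where 40 Rab genes were tested. The share of all genes tested rose as well, to 11.1% and 16.1% from 8.8%. Silica against CON gave 3 with every probe set on its own and 3 with the mean of the probe sets of a gene. All genes tested then had shares of 3.52% and 3.73%. Of 138 counts under alternatives, 109 stayed within 1.5 times the reported count. Those 109 include every count of the silica by LPS interaction, which was 0 as reported and under each alternative, so a ratio says nothing there.

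The direction of 3 genes turned. Rab11a in LPS against CON was 0.083 with the mean of its probe sets and 0.040 with cyclic loess, Rab31 in LPS against CON was 0.20 with the mean of its probe sets, and Rab22a in SPIO-LPS against LPS was -0.076 with that mean. The opposed probe sets given above enter these means; the cause under cyclic loess was not tested. Of 1893 values for single genes under alternatives, 1580 kept direction and call, 309 lost the call and 4 turned.

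Same-numbered arrays of different groups deviated together little, with 8 of 45 pairs correlating above 0.1 (range -0.31 to 0.19). Low correlations cannot exclude a pairing. The reported fit used none, and a replicate block was run as an alternative. With the replicate block Silica against CON gave 3 calls, and Rab2b and Rab38 in that comparison, Rab2a in SPIO-LPS against LPS Rab21 and Rab38 in the interaction, Rab14, Rab15 and Rab38 in SPIO against Silica, and Rab5b and Rab13 in SPIO-LPS against Silica-LPS were no longer called. RMA signals near the floor understate changes, which touches the 12 Rab genes below the lowest array median.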
